A study of Mus musculus with 21 samples.

Results

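Tumors grown from the mouse lines MC38 and BPD6 were compared for how their transcriptomes differed between mice on a methionine-restricted (MR) diet and mice on control chow. The quantity described is the interaction of tumor model and diet, that is, the MC38 difference (log2 of MR over control) minus the BPD6 difference. A value above 0 means that a gene stood higher on MR in MC38 than the BPD6 difference would give, and a value below 0 the opposite. The comparison used 15 of the 21 libraries of the series and the 14422 genes whose symbol stands in both tumor tables, of which 14257 had counts high enough to test. The groups were 4 MC38 control, 4 MC38 MR, 4 BPD6 control and 3 BPD6 MR libraries. MC38 is known as a mouse colon carcinoma line and BPD6 as a mouse melanoma line, and the labels call both materials tumor cells. No age, strain or time on diet was found in the labels. The labels also leave unsaid whether each library came from its own mouse, so the p-values below reflect how much these libraries varied, which may be technical variation. BPD6 libraries are named here by the number in their column, which is 1, 2 and 4 for MR.

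Methionine is an essential amino acid and the source of S-adenosylmethionine, the methyl donor of most cellular methylation. Lack of an amino acid is sensed through the kinase GCN2 and the transcription factor ATF4, which drives genes of amino acid synthesis and transport. Interferons, made by immune and other cells, switch on a shared set of antiviral genes in tumor and host cells alike. These sentences are background and were not measured here.

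Library totals over the joined genes lay between 16240364 and 24070259 counts. Differentiation markers of the labelled lines were mostly low and did not share a direction. Mitf, a melanoma marker, lay at 4.96 to 9.78 CPM (counts scaled to library size) in MC38 and 16.7 to 28.2 CPM in BPD6. Vil1, a colon carcinoma marker, lay at 0.898 to 1.8 CPM in MC38 and 0.0881 to 0.375 CPM in BPD6. The ranges of Sox10, Epcam, Cdh1, Krt8 and Krt18 overlapped between the models. Pmel, a pigment granule gene, lay at 0.946 to 2.17 CPM in MC38 and 0.981 to 1.85 CPM in BPD6. Tyr, Tyrp1, Dct, Mlana, Cdx1 and Cdx2 were looked for and had no values in either model. Krt20, an intestinal keratin, lay at 0.219 to 0.711 CPM in MC38 and 26.7 to 164 CPM in BPD6. The count columns in the table named for BPD6 carry the prefix GEMM6, which the labels do not explain, so that the BPD6 values rest on the name of the table. The tumors are called by their line names only. Some libraries stood apart in markers of neighbouring tissue. Summed skin markers reached 2538 CPM in BPD6 MR library 1 and 934 CPM in BPD6 control library 3. Summed skeletal muscle markers reached 10288 CPM in BPD6 control library 4, 7244 CPM in BPD6 MR library 2, 3727 CPM in MC38 MR replicate 2 and 3241 CPM in MC38 control replicate 3.

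No gene passed the interaction test. The quasi-likelihood test of edgeR called 0 of 14257 genes (0%) at an adjusted p under 0.05, and the lowest adjusted p was 0.849. An unadjusted p under 0.05 was held by 742 genes (5.2%), 414 above 0 and 328 below 0. That count was 473 without MC38 control replicate 1 and 1263 without MC38 MR replicate 4. In the same fit the diet difference within MC38 called 0 genes (0%), with a lowest edgeR adjusted p of 0.0900 and 2088 genes (14.6%) at an unadjusted p under 0.05. The number was 1302 without MC38 control replicate 1, and without MC38 MR replicate 4 the edgeR test called 46 genes, 7 higher and 39 lower. The diet difference within BPD6 called 0 genes (0%), with 368 (2.58%) at an unadjusted p under 0.05. In BPD6 the number was 213 without MR library 1, 658 without MR library 2 and 787 without control library 3.

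Other tools gave few or no calls in the interaction. Limma-voom called 0 genes in the interaction, with 723 at an unadjusted p under 0.05. DESeq2 called 10 of 11318 genes (0.0884%), Acp5 and Snapc5 above 0 and Cds2, Hoxa7, Mafg, Pitrm1, Ptch1, Rin1, Slc9a8 and Thra below 0. At an adjusted p under 0.05 the authors' deposited table for MC38 held 353 genes (2.87% of those with a value), 162 higher and 191 lower on MR. The authors' deposited table for BPD6 held 1 gene, Atf3 (0.00667%). More calls in one model than in the other do not show that the models differ, so the interaction estimates below are given as values, with their standard errors (SE), that did not pass the edgeR test.

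Over all tested genes the interaction had a median of 0.03 and an SD of 0.53 on the log2 scale, and 53.8% of genes lay above 0. The diet differences of the models, which share no library, had a Pearson correlation of 0.133 across these genes. The correlation is a description across genes, which are not independent replicates.

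**Figure D1:**
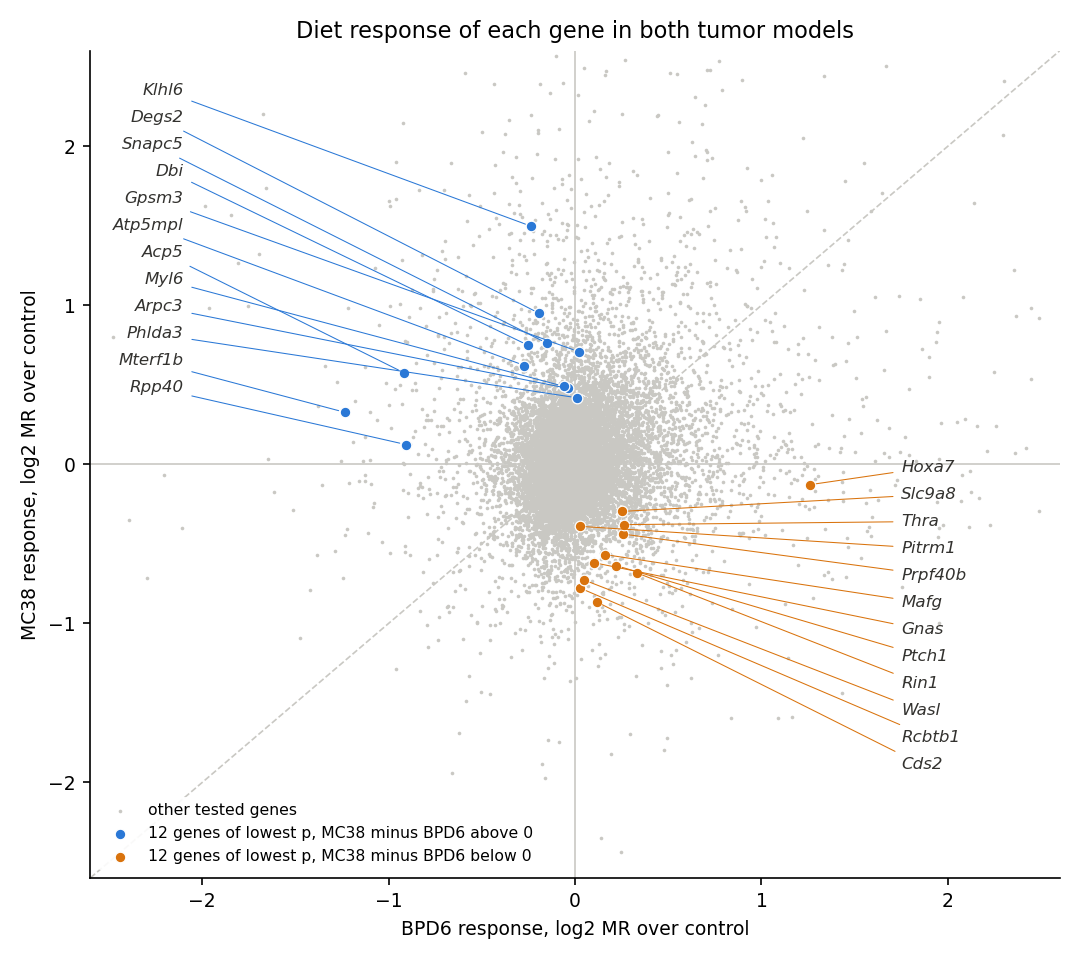
Diet response of each tested gene in BPD6 (horizontal axis, log2 MR over control) and in MC38 (vertical axis, same scale) from the edgeR fit; 67 tested genes lie outside the range of ±2.6. The coloured points are the 12 genes of lowest unadjusted p on each side of the line of equal response, and the larger difference is the MC38 one in 9 of the 12 above it and 11 of the 12 below it.

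The 12 genes of lowest unadjusted p below 0 had interactions between -1.39 and -0.42. They included genes of signalling and membrane traffic (Ptch1, Rin1, Gnas, Wasl, Slc9a8, Cds2) and of transcription and splicing (Thra, Mafg, Hoxa7, Prpf40b), with the mitochondrial peptidase gene Pitrm1 and Rcbtb1. In 11 of them the MC38 MR libraries all lay below the MC38 controls, and in 3 the BPD6 MR libraries all lay above the BPD6 controls. Over all tested genes such separations were seen in 4.55% and 1.54%. The genes were picked by the p of this contrast, so nothing is read from these counts. For 6 of the genes, Cds2, Ptch1, Gnas, Rcbtb1, Pitrm1 and Wasl, the tables list a different RefSeq transcript for each model.

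Slc9a8, a sodium-proton exchanger of Golgi and endosomal membranes, had opposite diet differences in the models. The gene lies on chr2:167421599-167477000 in the tables, whose build is GRCm38 per the submitters' processing notes. Its MC38 libraries held 59.6, 53.3, 55.7 and 55.5 CPM on control and 44, 49.2, 41.7 and 47.7 CPM on MR. Its BPD6 libraries held 29.5, 32.6, 32.8 and 32 CPM on control and 36.3, 35.8 and 41.2 CPM on MR. The diet groups overlapped in neither model, with MR the lower group in MC38 and the higher group in BPD6. The interaction was -0.55 ± 0.12 (SE), made of -0.30 ± 0.08 in MC38 and 0.25 ± 0.09 in BPD6. The DESeq2 adjusted p was 0.0116 and the edgeR adjusted p 0.849.

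Thra, the gene of thyroid hormone receptor alpha, showed the same arrangement. It held 23.8, 20.3, 21.4 and 19.4 CPM in MC38 controls and 14.5, 17.7, 16.2 and 16.9 CPM in MC38 MR. The BPD6 libraries held 42.7, 51.8, 52.3 and 56.2 CPM on control and 60.1, 59.2 and 63.2 CPM on MR. All MR libraries were below the controls in MC38 and above them in BPD6, with an interaction of -0.64 ± 0.15 and a DESeq2 adjusted p of 0.0494. In all, 4 genes (0.0281%) had separate diet groups in both models with MR lower in MC38 and higher in BPD6, and 1 (0.00701%) had the reverse. How many genes would do so by the order of libraries alone was not computed, so nothing is read from these counts. Besides Slc9a8 and Thra the first kind held Usp53, of the ubiquitin protease family, at -0.83 ± 0.27, and the zinc finger gene Zfp346 at -0.54 ± 0.14. The reverse case was Rps15a-ps6 at 1.01 ± 0.31, a ribosomal pseudogene that may share reads with Rps15a and is uncertain. Usp53, Zfp346 and Rps15a-ps6 were singled out after their values were seen.

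Mafg encodes a small Maf protein, a DNA-binding partner of NRF2 and related factors. It held 53.5, 45.8, 47.3 and 46.2 CPM in MC38 controls and 27.4, 30.8, 36 and 36 CPM in MC38 MR, against 41.9, 44.2, 46.7 and 48.9 CPM in BPD6 controls and 47.5, 49.6 and 54.9 CPM in BPD6 MR. MR was the lower group in MC38 without overlap, while the BPD6 groups overlapped, and the interaction was -0.73 ± 0.15 with a DESeq2 adjusted p of 0.0102. Hoxa7, a homeobox gene, took its estimate from BPD6. It held 24.9, 22.2, 25.7 and 25.4 CPM in MC38 controls and 20.3, 21.5, 22 and 25.8 CPM in MC38 MR, which overlapped. Its levels in BPD6 were 0.480, 0.693, 0.665 and 1.36 CPM on control and 1.76, 2.58 and 1.44 CPM on MR, and MR was higher without overlap. These BPD6 levels rest on few counts, 8, 12, 11 and 23 on control and 32, 44 and 26 on MR. The interaction was -1.39 ± 0.35.

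Cds2, an enzyme on the way to phosphatidylinositol, had the lowest p of all genes. In MC38 it held 20.7, 17.4, 19.2 and 23.8 CPM on control and 8.59, 10.5, 12.6 and 12.9 CPM on MR, with all MR libraries lower. In BPD6, where another transcript is listed, it held 92.2, 105, 99 and 95.5 CPM on control and 103, 102 and 114 CPM on MR, which overlapped. The interaction of -0.98 ± 0.18 had a DESeq2 adjusted p of 0.000621. Because the listed transcripts differ, a difference in isoform use and a difference in the whole gene cannot be told apart here. The same limit holds for the next 5 genes. Ptch1, the Hedgehog receptor, had an interaction of -0.86 ± 0.19, and Gnas, the stimulatory G protein alpha subunit, had -0.72 ± 0.17. Wasl, the actin regulator N-WASP, had -0.78 ± 0.19, Rcbtb1 had -0.81 ± 0.20 and Pitrm1 had -0.42 ± 0.10. Rin1, a RAS effector with the same transcript in both tables, had -1.01 ± 0.23, and the splicing factor gene Prpf40b had -0.69 ± 0.18.

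The 12 genes of lowest unadjusted p above 0 had interactions between 0.41 and 1.73. In 8 of them the MC38 MR libraries all lay above the MC38 controls, and in 3, Acp5, Rpp40 and Mterf1b, the BPD6 MR libraries all lay below the BPD6 controls. The shares over all tested genes were 4.06% and 1.61%, and here too nothing is read from the counts. Their median transcript length was 1349.5 nt, against 3926.5 nt for the 12 genes below 0, and short transcripts in general had higher interactions, as given with the respiratory genes. The listed transcripts of Acp5 and Myl6 differ between the tables.

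Snapc5, a subunit of the complex that starts small nuclear RNA transcription, held 4.34, 3.42, 4.28 and 4.47 CPM in MC38 controls and 7.41, 6.88, 6.91 and 6.76 CPM in MC38 MR. In BPD6 it held 9.37, 11.3, 8.46 and 11.4 CPM on control and 9.35, 8.93 and 9.13 CPM on MR. MR was higher in MC38 without overlap and the BPD6 groups overlapped, with an interaction of 0.91 ± 0.21 and a DESeq2 adjusted p of 0.0494. Dbi encodes the acyl-CoA binding protein. It held 53.3, 63.3, 48.8 and 68.1 CPM in MC38 controls and 128, 102, 83.5 and 78.7 CPM in MC38 MR, against 171, 136, 128 and 132 CPM in BPD6 controls and 125, 129 and 104 CPM in BPD6 MR. The MC38 groups were apart and the BPD6 groups overlapped, and the interaction was 1.0 ± 0.23.

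Rpp40, a protein subunit of ribonuclease P, took its estimate from BPD6. It held 18.1, 17.3, 16.4 and 15.9 CPM in MC38 controls and 19.6, 16.4, 16.8 and 21 CPM in MC38 MR, with overlap. The BPD6 libraries held 5.64, 4.39, 4.47 and 3.01 CPM on control and 2.31, 2.47 and 2.21 CPM on MR, with every MR library lower, and the interaction was 1.03 ± 0.24. Acp5 is the tartrate-resistant acid phosphatase of osteoclasts and macrophages. Its levels in BPD6 were 31.3, 36.3, 38.9 and 57.3 CPM on control and 21, 22.4 and 21.7 CPM on MR, with every MR library lower. In MC38 its groups overlapped, at 20.4, 29.98, 30.3 and 40.01 CPM on control and 31.6, 53.9, 58.2 and 35.9 CPM on MR, and the interaction was 1.49 ± 0.35 with a DESeq2 adjusted p of 0.0494. Mterf1b, of the mitochondrial transcription terminator family, had 1.56 ± 0.38 but has a close copy in the mouse genome, Mterf1a, and may share its reads. The BPD6 levels of Mterf1b rest on few counts, 26, 22, 18 and 15 on control and 12, 8 and 7 on MR.

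The other genes above 0 had their larger difference in MC38. Arpc3, a subunit of the actin-branching Arp2/3 complex, had an interaction of 0.51 ± 0.14, and Myl6, a non-muscle myosin light chain, had 0.55 ± 0.15. Phlda3, a p53 target that restrains AKT, lay at 48.4 to 52 CPM in MC38 controls and 60.1 to 73.1 CPM in MC38 MR, with an interaction of 0.41 ± 0.11. Relative to genes of like transcript length these values were lower, at 0.28 for Arpc3, 0.32 for Myl6 and 0.22 for Phlda3. Gpsm3, a G protein modulator of leukocytes, had 0.69 ± 0.19. Degs2, a sphingolipid desaturase, had 1.14 ± 0.29, and Atp5mpl, a small protein of the ATP synthase, had 0.89 ± 0.25. Klhl6, a gene of B cells, had 1.73 ± 0.48, with MC38 controls at 1.77 to 4.26 CPM and MC38 MR at 4.21 to 12.4 CPM, which overlapped. In the authors' deposited table for MC38, 9 of the 12 genes above 0 and 8 of the 12 below 0 had an adjusted p under 0.05. The share over all genes with a value in that table was 2.87%. In the authors' deposited table for BPD6, 0 genes of either set did. The genes were picked by the interaction p in these same libraries, so nothing is read from these counts.

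**Figure D2:**
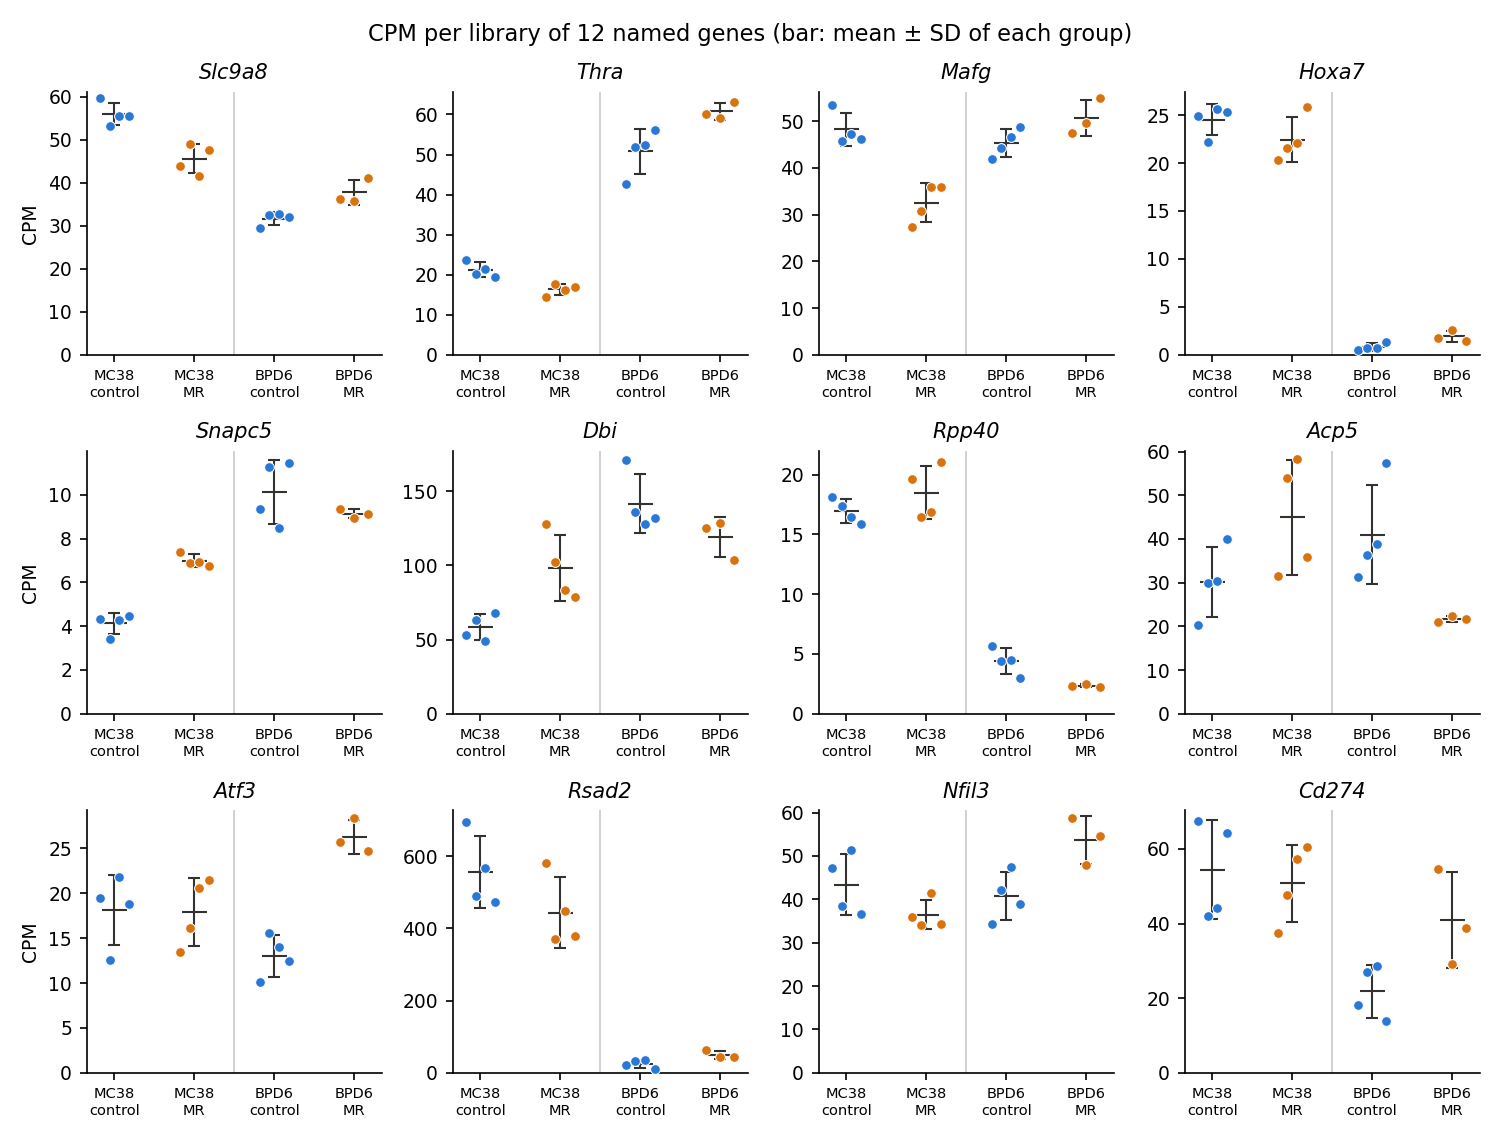
CPM of 12 named genes in each library by model and diet, with bars for the mean ± SD of each group (n = 4, 4, 4 and 3). Slc9a8 and Thra have separate diet groups in both models in opposite directions, Mafg, Snapc5 and Dbi in MC38 alone, and Hoxa7, Rpp40, Acp5, Atf3, Rsad2, Nfil3 and Cd274 in BPD6 alone.

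Gene groups are described by counts and medians, since no member of any of the 53 lists was called. Beside the counts of members, 5.2% of all tested genes had an unadjusted interaction p under 0.05, and 53.8% lay above 0. Genes of a list are not independent replicates, so nothing is read from such counts alone. Of the 38 tested type I interferon genes, 37 had an interaction below 0, with a median of -0.66, and 5 had an unadjusted p under 0.05. The median diet difference was 0.01 in MC38 and 0.64 in BPD6, where 38 lay above 0, against 48.3% of all tested genes. Ifi27 was the exception above 0 in the interaction. The base level differed between the models, since the summed CPM of the list was 6635 to 7309.8 in MC38 controls and 656 to 1825 in BPD6 controls.

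Promoters are shown for this group because a shared element, the interferon-stimulated response element, is known to drive such genes. RefSeq promoters (build GRCm38.p6, 250 bases before to 50 after a gene's start) were found for 26 of the 38 genes. The element was searched on both strands as GAAA, any 2 bases and GAAA, and was in 15 of their 31 promoters (48.4%) and in 3.23% of the 14128 promoters of tested genes. Stretches of members named for their low p are written 5′ to 3′ on the strand of the gene, with the match in capitals, here as its reverse complement.
Rsad2, chr12:26456548-26456587, minus strand: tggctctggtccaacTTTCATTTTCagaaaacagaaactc
Trim30a, chr7:104465205-104465244, minus strand: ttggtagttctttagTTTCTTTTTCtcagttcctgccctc
A match is a description of the sequence and not a measured binding site.

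Rsad2 encodes viperin, an antiviral enzyme. It held 694, 489, 568 and 474 CPM in MC38 controls and 581, 369, 447 and 378 CPM in MC38 MR, against 22, 32.4, 34.3 and 11.2 CPM in BPD6 controls and 62, 44.1 and 43.7 CPM in BPD6 MR. The MC38 groups overlapped, the BPD6 MR libraries all lay above the controls, and the interaction was -1.33 ± 0.40. Trim30a, an interferon-induced TRIM protein, had -0.78 ± 0.29, and Ddx58, the RIG-I sensor of viral RNA, had -0.67 ± 0.26. Ifi44 had -1.46 ± 0.49 on transcripts that differ between the tables. Ifit1, which binds viral RNA, had -1.0 ± 0.48, with group means of 158 (control) and 169 (MR) CPM in MC38 and 36.3 and 77.1 CPM in BPD6. Genes of the Ifit family are alike in sequence and may share reads. Cd274, the PD-L1 ligand that interferons induce, held 67.4, 42.1, 44 and 64.3 CPM in MC38 controls and 37.6, 47.7, 57.3 and 60.4 CPM in MC38 MR. In BPD6 it held 18.1, 26.9, 28.5 and 13.8 CPM on control and 54.6, 29.2 and 38.7 CPM on MR, with MR higher without overlap, and its interaction was -1.01 ± 0.38.

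The BPD6 part of the interferon values leaned on single libraries. Relative to the BPD6 control mean, the mean log2 level of the list was 0.10, 0.35, 0.61 and -1.07 in control libraries 1 to 4 and 1.19, 0.75 and 0.29 in MR libraries 1, 2 and 4. Control library 4, the one with the most muscle RNA, was far below the other controls, and MR library 1, the one with the most skin RNA, was the highest; the part of these tissues in the result was not tested. The median interaction was -0.43 without control library 4 and -0.40 without MR library 1. In MC38 the list lay within -0.08 to 0.09 in controls and -0.23 to 0.20 in MR. In bulk tumor RNA, fewer cells of a type and less RNA per cell cannot be told apart.

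Of the 21 tested ATF4 targets, 20 had an interaction below 0, with a median of -0.42. An unadjusted p under 0.05 was held by 4 of them, against 5.2% of all tested genes. The medians of the diet difference were -0.21 in MC38 and 0.13 in BPD6. Phgdh, the first enzyme of serine synthesis, was the exception above 0. The element TGATGNAA, known to bind C/EBP-ATF dimers, was searched on both strands and was in 8 of 24 promoters of the list (33.3%) and in 2.44% of all promoters of tested genes. Stretches of members named for their low p carry the match in capitals, again as its reverse complement.
Atf3, chr1:191183421-191183458, minus strand: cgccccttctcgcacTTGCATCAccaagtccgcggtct
Chac1, chr2:119351034-119351071, plus strand: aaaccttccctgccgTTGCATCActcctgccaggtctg

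Atf3, a stress-induced transcription factor, held 19.5, 12.6, 21.8 and 18.8 CPM in MC38 controls and 13.5, 16.2, 20.6 and 21.5 CPM in MC38 MR. The BPD6 libraries held 10.1, 15.6, 14 and 12.5 CPM on control and 25.8, 28.4 and 24.7 CPM on MR. The MC38 groups overlapped and in BPD6 MR was higher without overlap, with an interaction of -1.03 ± 0.28. The authors' deposited table for BPD6 gave Atf3 a log2 difference of 1.02 and an adjusted p of 0.00141. Chac1, which degrades glutathione, took its estimate from MC38. It held 30.1, 20.9, 31.3 and 21.9 CPM in MC38 controls and 18.5, 17.7, 16.8 and 10.9 CPM in MC38 MR, with MR lower without overlap. Its levels in BPD6 were 38.5, 51.8, 34.9 and 33.9 CPM on control and 30.6, 40.8 and 42.8 CPM on MR, which overlapped, and its interaction was -0.64 ± 0.29. Ppp1r15a, the GADD34 subunit that reverses eIF2 phosphorylation, had -1.04 ± 0.43, and Sesn2, a stress-induced inhibitor of mTORC1, had -0.43 ± 0.22. Asns, the asparagine synthetase that ATF4 is known to drive, had -0.08 ± 0.32, Slc7a11, the cystine transporter, had -0.68 ± 0.52, and Mat2a, the S-adenosylmethionine synthetase of most tissues, had -0.14 ± 0.20 on differing transcripts. None of these last estimates lay beyond 2 SE of 0.

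Glycolysis and hypoxia genes had a median interaction of -0.40, with 33 of 34 below 0 and 1 at an unadjusted p under 0.05. The exception was Pfkfb4. Over all tested genes 5.2% had an unadjusted interaction p under 0.05. In 24 of the 34 genes MR was lower in MC38 and higher in BPD6. The share of all tested genes with this pattern was not computed, so nothing is read from that count. Hk2, hexokinase 2, held 154, 109, 147 and 104 CPM in MC38 controls and 117, 76.4, 112 and 116 CPM in MC38 MR, against 71.9, 77.3, 103 and 55.4 CPM in BPD6 controls and 87, 102 and 98.4 CPM in BPD6 MR. The groups overlapped in both models, and the interaction was -0.61 ± 0.28. Slc2a1, the glucose transporter GLUT1, had -0.78 ± 0.40, and Vegfa, the angiogenic growth factor, had -0.72 ± 0.39 on differing transcripts. The letters ACGTG, the core of the hypoxia response element, were in 55.6% of the list's promoters and 24.7% of all promoters of tested genes. BPD6 control 3 and MR 1, the libraries with skin RNA, were the highest of their groups for this list, at 0.68 and 0.75 relative to the control mean (log2), and the part of skin RNA in the result was not tested. The list median was -0.76 without control library 3 and -0.18 without MR library 1.

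Circadian clock genes had a median interaction of -0.39, with 16 of 17 below 0. At an unadjusted p under 0.05 were 2 of them, against 5.2% of all tested genes. The exception was Nr1d1. Nfil3, a repressor of clock output genes, held 47.2, 38.4, 51.5 and 36.6 CPM in MC38 controls and 36, 34.1, 41.4 and 34.4 CPM in MC38 MR. In BPD6 it held 34.4, 42.3, 47.4 and 38.8 CPM on control and 58.8, 47.8 and 54.7 CPM on MR. The MC38 groups overlapped and in BPD6 MR was higher without overlap, with an interaction of -0.65 ± 0.19. Per2, of the negative limb of the clock, had -1.37 ± 0.47 with overlap in both models, and Cry1, of the same limb, had -0.39 ± 0.23. The list was high in BPD6 control library 3, at 0.53, and MR library 1, at 0.64. Its median was -0.61 without that control, -0.26 without that MR library and -0.24 without control library 1. No label gives the time of day of collection.

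Inflammatory and immediate-early genes lay on the same side. Of 28 cytokine and chemokine genes 19 lay below 0, with a median of -0.33, and of 23 immediate-early genes 17 did, with a median of -0.29. The cytokine median was -0.19 without BPD6 MR library 1 and -0.52 relative to genes of like length. The immediate-early median was -0.20 without MC38 MR replicate 1 and -0.45 without MC38 MR replicate 3. Ccl4, a chemokine of activated lymphocytes and macrophages, held 1.44, 1.62, 1.51 and 0.767 CPM in BPD6 controls and 4.73, 3.05 and 1.88 CPM in BPD6 MR. In MC38 it held 9.12, 6.64, 7.13 and 8.63 CPM on control and 9.03, 7.18, 10.8 and 10.5 CPM on MR. MR was higher without overlap in BPD6, the MC38 groups overlapped, and the interaction of Ccl4 was -1.02 ± 0.41, or -0.63 without BPD6 MR library 1. Among AP-1 subunits Fosl2 had -0.72 ± 0.24 and Jun, on the other side, 0.46 ± 0.13.

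**Figure D3:**
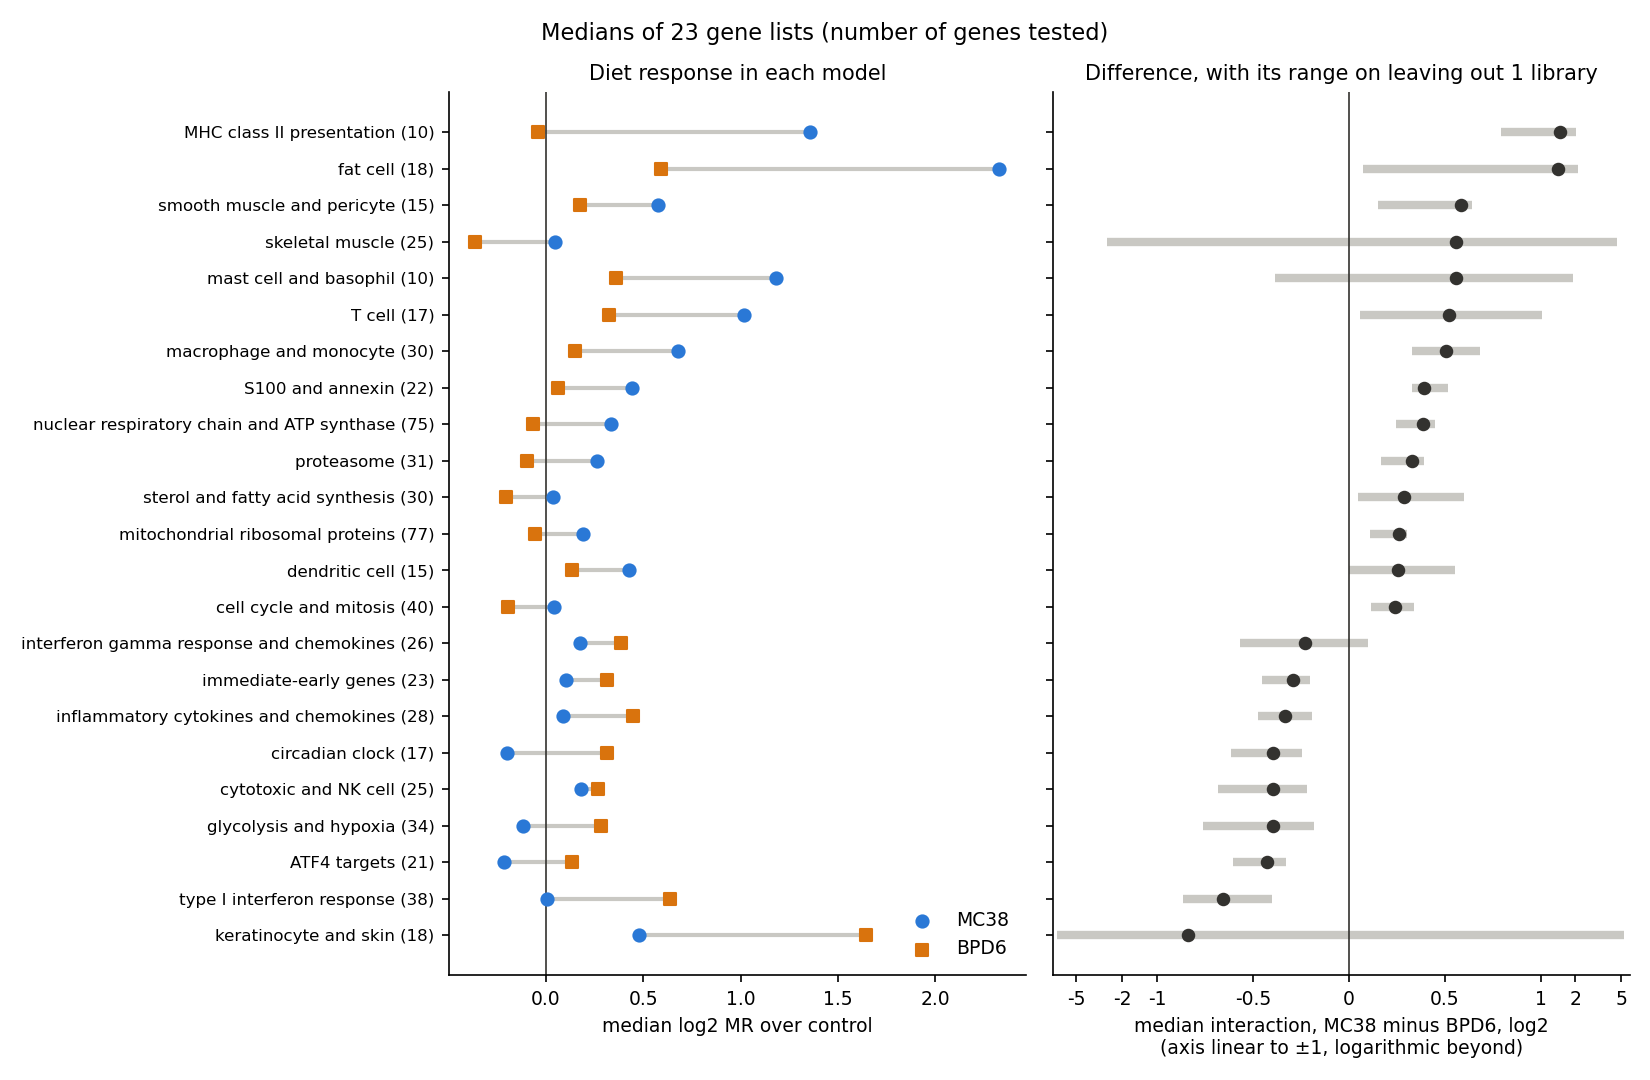
Left, median diet response (log2 MR over control) of 23 gene lists in each model, with the number of tested genes in brackets; right, median interaction with the range seen on leaving out 1 library at a time, which is not a confidence interval, on an axis that is linear to ±1 and logarithmic beyond. The keratinocyte, interferon gamma, mast cell and skeletal muscle ranges cross 0, and the others, from MHC class II at 1.47 to type I interferon at -0.66, do not.

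Genes of mitochondrial respiration and of protein breakdown stood on the other side of 0. Of 75 nuclear genes of the respiratory chain and ATP synthase, 74 had an interaction above 0, with a median of 0.38. Among the 75, 28 had an unadjusted p under 0.05, against 5.2% of all tested genes. The median diet difference was 0.34 in MC38 and -0.07 in BPD6. Ndufa3, a subunit of complex I, had 0.92 ± 0.27, with means of 27.3 (control) and 44.4 (MR) CPM in MC38 and 40.8 and 35 CPM in BPD6. Cox7b, of complex IV, had 0.58 ± 0.18, and Cyc1, of complex III, was the exception below 0. All 31 proteasome genes lay above 0, with a median of 0.33 and 5 at an unadjusted p under 0.05, among them the core subunit gene Psmb2 at 0.33 ± 0.14. Of 77 mitochondrial ribosomal protein genes 74 lay above 0, with a median of 0.26.

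These groups are made of short transcripts, and transcript length moved with the MC38 difference. The median length was 809 nt for the respiratory list and 1512 nt for the proteasome. Over all tested genes the median interaction was 0.21 in the shortest of 5 equal classes of length and -0.10 in the longest. Relative to MC38 controls, the shortest class stood above the longest by 0.83 (log2) in MC38 MR replicate 1 and by 0.34, 0.28 and 0.07 in the other MC38 MR replicates. The length shift also varied within BPD6. Relative to BPD6 controls, it was 0.40, -0.17, -0.05 and -0.16 in BPD6 control libraries 1 to 4. In BPD6 MR libraries 1, 2 and 4 it was 0.22, 0.03 and -0.04. Relative to genes of like length, the list medians were 0.20 for the respiratory list, 0.16 for the proteasome and 0.10 for the mitochondrial ribosomal proteins. Without MC38 MR replicate 1 they were 0.25, 0.17 and 0.11. Without BPD6 control library 1 the median of the mitochondrial ribosomal proteins was 0.16. These lists kept medians above 0 at lower values. Another list of short transcripts, the cytosolic ribosomal proteins with a median of 830 nt, did not. Of its 79 genes 77 had an interaction above 0, with a median of 0.20. Relative to genes of like length that median was -0.01.

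**Figure D4:**
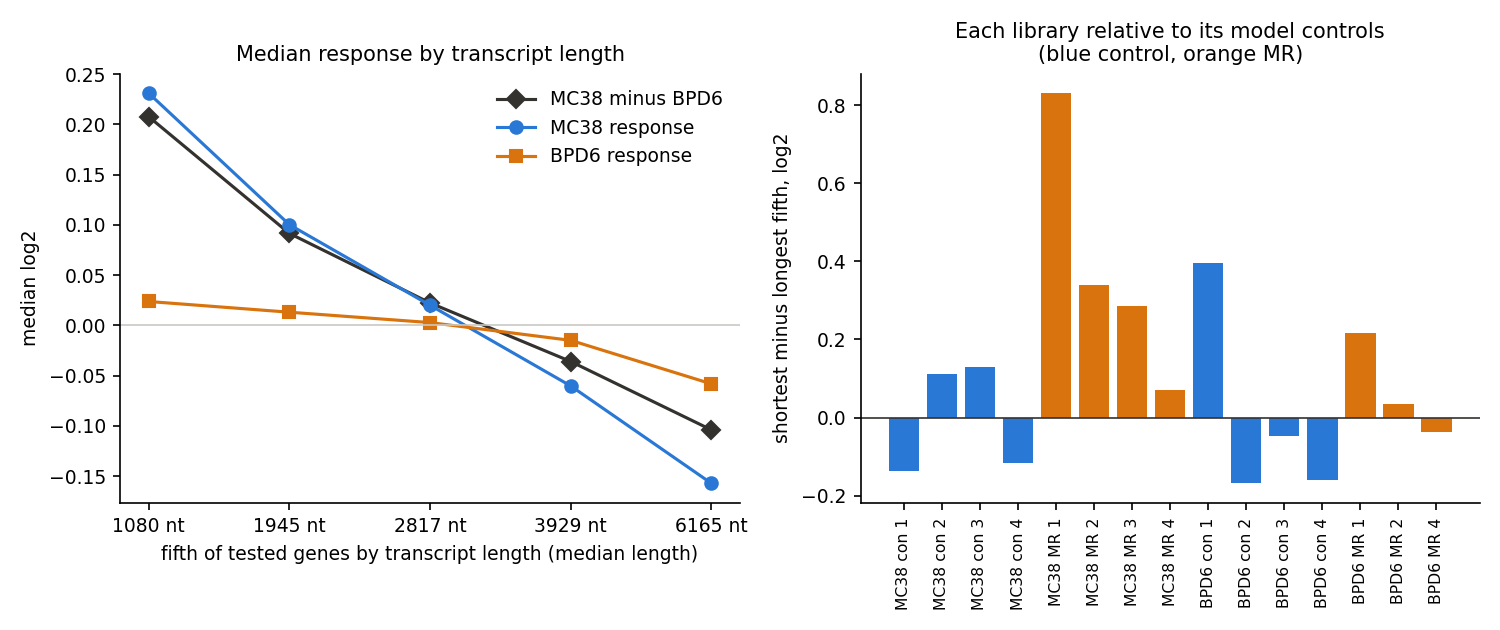
Left, median log2 difference of the tested genes in 5 classes of transcript length for MC38, BPD6 and MC38 minus BPD6. Right, for each library, the median log2 deviation from its model's control mean in the shortest class minus that in the longest class. The interaction runs from 0.21 to -0.10 with length, and MC38 MR replicate 1 stands at 0.83.

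Cell cycle and S100 genes also had medians above that of all genes. Of 40 cell cycle genes 39 lay above 0, all but E2f1, with a median of 0.24, 0.04 in MC38 and -0.19 in BPD6. Cdk1, the mitotic kinase, had 0.46 ± 0.19, while Mki67, the proliferation marker, had 0.13 ± 0.22. The list median was 0.12 without BPD6 control library 1. Of 22 S100 and annexin genes, calcium-binding proteins, 15 lay above 0, with a median of 0.39. Among the 22, 9 had an unadjusted p under 0.05, against 5.2% of all tested genes. This list too is made of short transcripts, with a median length of 1255.5 nt. Its median interaction was 0.27 relative to genes of like length and 0.33 without BPD6 control library 1. The mean log2 level of that list was -0.09 to 0.10 in MC38 controls and 0.30 to 0.65 in MC38 MR, which did not overlap, against -0.31 to 0.26 and -0.24 to 0.61 in BPD6. S100a10, the annexin A2 partner, had 0.53 ± 0.19, and Capg, an actin capping protein, had 0.42 ± 0.13.

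The median diet difference of MHC class II genes was 1.36 in MC38 and -0.04 in BPD6, while that of 20 MHC class I genes was 0.30 and 0.33. All 10 tested genes of MHC class II presentation had an interaction above 0, with a median of 1.47. Among them 2 had an unadjusted p under 0.05, H2-DMb2 and H2-Ob, against 5.2% of all tested genes. Both were far higher in MC38 MR replicate 3 than in the other MC38 MR libraries, as given below. H2-Eb1, a class II beta chain, held 20.6, 26.1, 24.9 and 68 CPM in MC38 controls and 37.1, 97.8, 194 and 67.1 CPM in MC38 MR. The BPD6 libraries held 105, 81.4, 116 and 23.7 CPM on control and 128, 90.6 and 20.03 CPM on MR. The groups overlapped in both models, with MC38 control replicate 4 as high as MC38 MR replicate 4, and the interaction was 1.54 ± 0.93. Cd74, the invariant chain, had 1.35 ± 0.84. MC38 MR replicate 3 had the highest class II level, and the list median was 0.80 without it. In that library H2-Ob stood at 19.2 CPM and H2-DMb2 at 24.6 CPM, above 0.748 and 2.16 CPM as the highest of the other MC38 MR libraries. H2-DMb2 has a close copy, H2-DMb1, and its listed transcripts differ.

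Of 30 macrophage and monocyte markers 27 had an interaction above 0, with a median of 0.51. Among the 30, 4 had an unadjusted p under 0.05, against 5.2% of all tested genes. The median was 0.33 without MC38 MR replicate 2, 0.34 without BPD6 MR library 4 and 0.37 relative to genes of like length. The exceptions were Gpnmb, Spp1 and Adgre1. The summed level was 3504 to 4265 CPM in MC38 controls and 4166 to 5808 CPM in MC38 MR, against 6986 to 9618 and 7727 to 9347 CPM in BPD6. Tyrobp, the DAP12 signalling adaptor of myeloid cells, held 21.9, 26, 21.2 and 35.1 CPM in MC38 controls and 29.4, 60.8, 49 and 51.6 CPM in MC38 MR. Its levels in BPD6 were 46, 48.4, 37.8 and 34.8 CPM on control and 48.4, 47.8 and 34.6 CPM on MR. The groups overlapped in both models, in MC38 through MR replicate 1 and control replicate 4, and the interaction was 0.81 ± 0.32. Fcgr3, an antibody receptor, had 0.92 ± 0.38, Trem2, a lipid receptor of macrophages, had 0.74 ± 0.33, and Apoe, the lipid carrier, had 1.5 ± 0.58 on differing transcripts.

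T cell and cytotoxic markers gave no shared side. Of 17 T cell genes 13 lay above 0, with a median of 0.52, which was 0.06 without MC38 MR replicate 3. It was 0.11 without BPD6 control library 2, 0.32 without BPD6 MR library 4, 1.02 without BPD6 MR library 1 and 0.33 relative to genes of like length. Cd8a, of the cytotoxic T cell co-receptor, had 0.57 ± 0.97 on differing transcripts. Of 25 cytotoxic and NK cell genes 17 lay below 0, with a median interaction of -0.40, although the median diet differences were 0.18 in MC38 and 0.27 in BPD6. Their median interaction was -0.68 without MC38 MR replicate 4, -0.68 without MC38 control replicate 3, -0.61 and -0.60 without BPD6 control libraries 1 and 2, -0.25 without BPD6 control library 4, -0.22 without MC38 MR replicate 1 and -0.63 relative to genes of like length. Ncr1, the NKp46 receptor, had -1.49 ± 0.87. Its BPD6 levels rest on few counts, 4, 2, 6 and 5 on control and 14, 13 and 10 on MR.

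**Figure D5:**
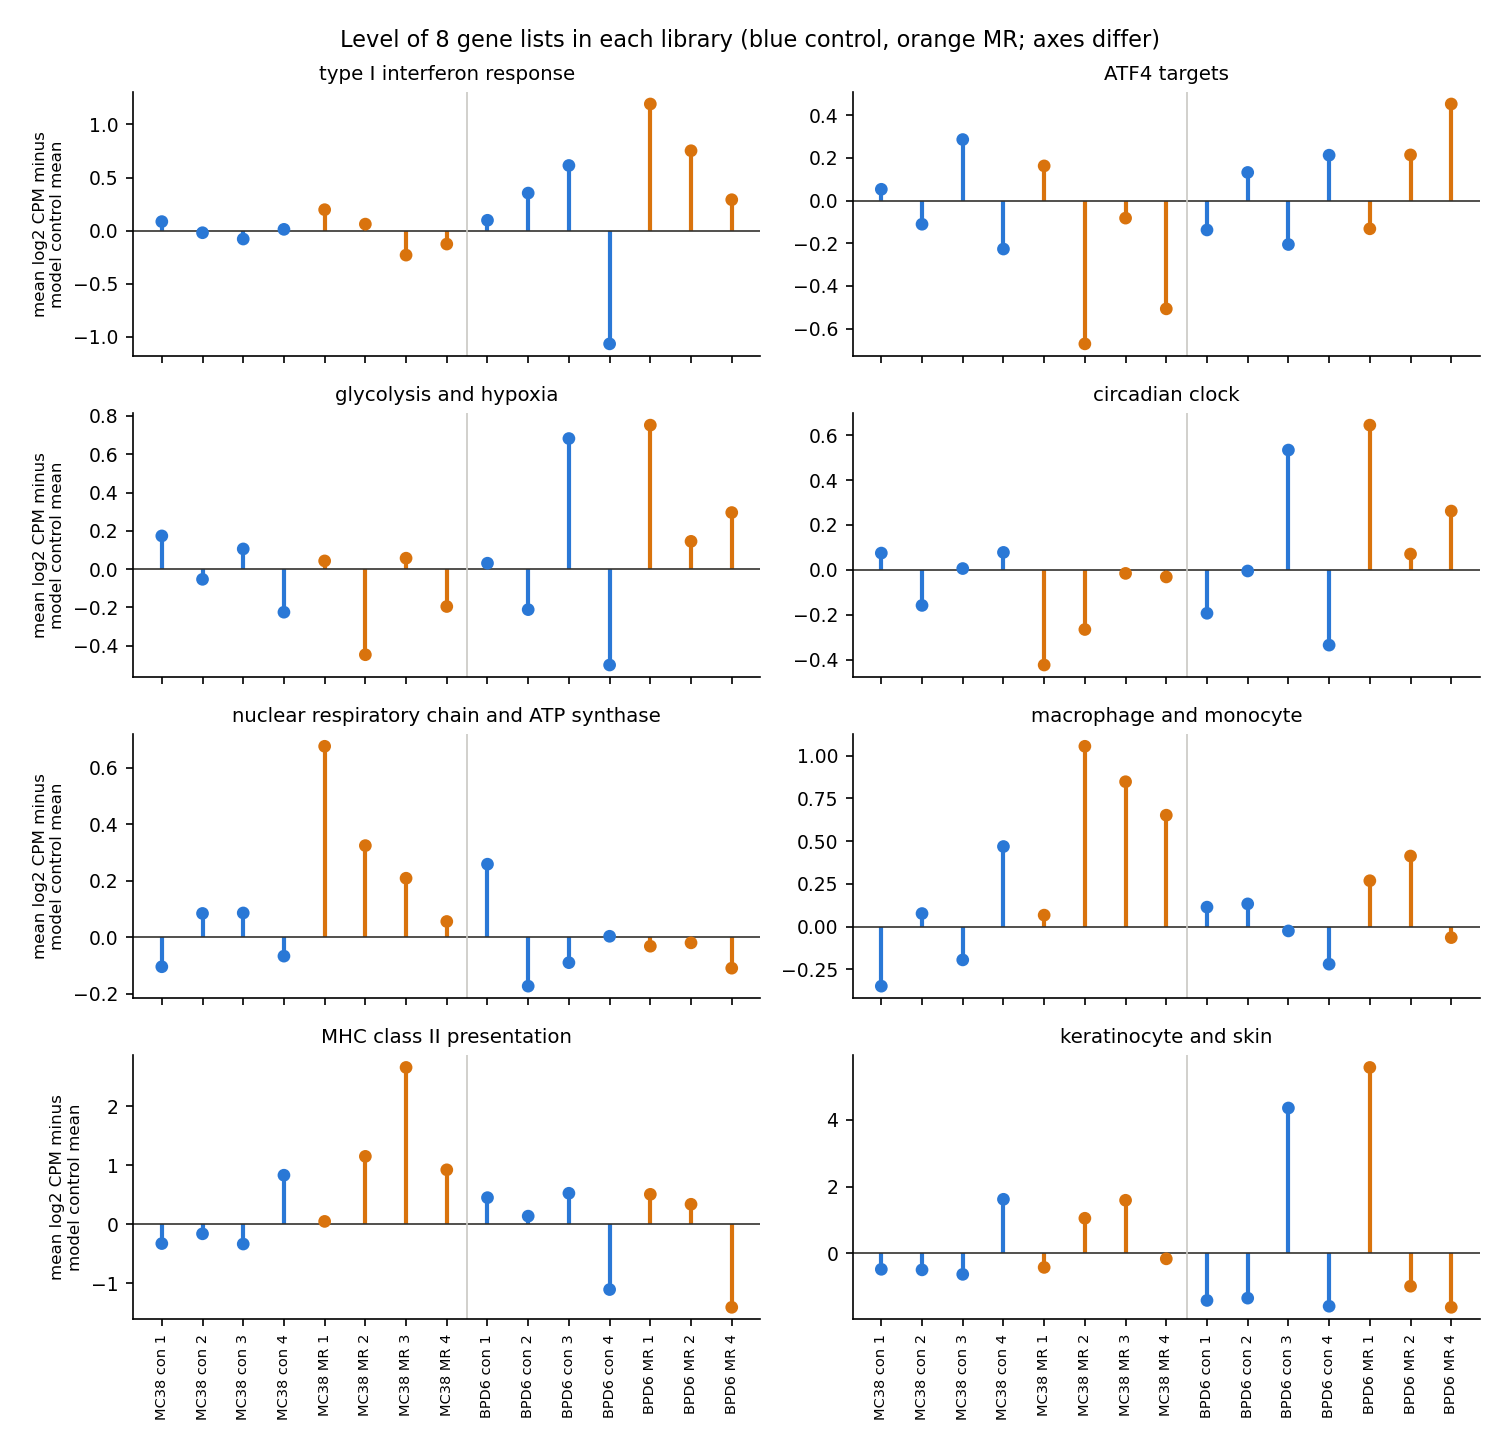
Mean log2 CPM of 8 gene lists in each of the 15 libraries minus the mean of the controls of the same model, with axes that differ between panels. The interferon list spans -1.07 to 1.19 in BPD6, and MHC class II peaks at 2.66 in MC38 MR replicate 3.

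Skin, muscle, mast cell and fat genes had medians that single libraries set. The keratinocyte list had a median interaction of -0.84, which was -7.34 without BPD6 control library 3 and 5.32 without BPD6 MR library 1. Krt10, a keratin of the upper epidermis, held 3.24, 2.54, 45.4 and 2.36 CPM in BPD6 controls and 426, 2.11 and 2.77 CPM in BPD6 MR, so that 1 library of each group stood far above the rest. The skeletal muscle median of 0.56 was -2.71 without MC38 MR replicate 2 and 4.63 without BPD6 MR library 2. The mast cell median of 0.56 was -0.38 without BPD6 control library 3 and 1.9 without BPD6 MR library 1. The fat cell list had a median of 1.42, with 15 of 18 above 0, and of 0.07 without BPD6 control library 3. Fabp4, a fatty acid binding protein of fat cells, held 7.49, 33.5, 27.3 and 12.9 CPM in MC38 controls and 94.6, 119, 132 and 15 CPM in MC38 MR, with MR replicate 4 inside the control range, against 17.5, 10.1, 16.4 and 17.8 and 28.9, 29.6 and 9.74 CPM in BPD6. No difference between the models was read for these tissues.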

How the data were processed

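Bulk RNA of 15 tumor libraries was used (polyA selection and Illumina sequencing, per the labels' protocols). Estimated counts by gene symbol, each with a listed transcript, were deposited by the authors. Whether a count covers the listed transcript or the whole gene was not established here. Of the values, 46.8% (MC38) and 46.6% (BPD6) were not whole. The authors also deposited log2 fold changes and p-values of their own within each model, per the file headers. The build was GRCm38 (mm10), per the submitters' processing notes, with the aligner and counter not given in the sources used here. Another 15 per-library columns were not used here. BPD6 columns carry the prefix GEMM6 and numbers that differ in part from the labels, so they were used by group and are named by column number.

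Estimated counts were rounded, joined by gene symbol (10548 genes list the same transcript in both tables) and fitted for 4 groups with edgeR 4.0.16 in R 4.3.3 (filterByExpr, TMM, quasi-likelihood test, Benjamini-Hochberg adjustment over all tested genes), and tested on simulated data. CPM use TMM-scaled library sizes. Alternatives were limma 3.58.1 voom, DESeq2 1.42.0, other scalings and filters, a replicate block, and leaving out each library. Named genes were the 12 of lowest p in each direction (at least 1 CPM in a group; clones, predicted genes and receptor segments left out), 3 members of each list whose median lay over 0.4 from that of all genes, and 8 fixed genes; others named in the text are list members given as examples. Members and lists were chosen with earlier results of these data known. The replicate numbers were not used to pair the samples in the fit of 4 groups.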

Additional observations from a re-analysis of the deposited data

Results flagged for a closer look

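Within groups of 4 libraries, 24 of 252 sets of values checked had 1 library far from the other 3, by Dixon's criterion, and chance alone gives about 1 in 20. MC38 MR replicate 3 stood apart at 5.21 CPM for Mterf1b, 9.72 CPM for Cd4, 24.6 CPM for H2-DMb2 and 19.2 CPM for H2-Ob. MC38 control replicate 4 stood apart at 8.52 CPM for Degs2, 7.74 CPM for Krt10, 6.34 CPM for Lor, 68 CPM for H2-Eb1 and 532 CPM for MHC class II presentation genes (summed). MC38 MR replicate 1 stood apart at 78.9 CPM for Atp5mpl and 193 CPM for Ifi44. BPD6 control library 3 stood apart at 45.4 CPM for Krt10, 47.4 CPM for Lor, 94.5 CPM for Mxi1, 5.8 CPM for Mcpt2 and 841 CPM for circadian clock genes (summed). MC38 MR replicate 2 stood apart at 76.4 CPM for Hk2, 246 CPM for Des and 3727 CPM for skeletal muscle genes (summed). MC38 control replicate 3 stood apart at 7.53 CPM for Actn2, 99.1 CPM for Des, 2.91 CPM for Tnnc1 and 3241 CPM for skeletal muscle genes (summed). BPD6 control library 4 stood apart at 10288 CPM for skeletal muscle genes (summed).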

How the results depend on the processing

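The edgeR count of 0 interaction calls held under the other scalings, filters, limma-voom and each left-out library. DESeq2 called 10 genes in the interaction, 398 in MC38 and 4 in BPD6; the cause was not tested. Leaving out 1 library gave 0 to 46 MC38 calls, the highest without MC38 MR replicate 4. Of 1682 recomputed values of the 71 named genes, 1648 kept direction and call, 10 passed by DESeq2 and 24 changed sign. Of 575 list medians 10 changed sign and 12 moved beyond the spread between libraries. With 1 library left out, values ranged from -6.22 to 1.94 for the interaction of Krt10, from -6.41 to 2.57 for the interaction of Lor, from -0.26 to 2.96 for the interaction of Mcpt2, from -2.18 to 0.56 for the interaction of Mcpt8, from -0.95 to 5.13 for the interaction of Des, from -1.4 to 1.18 for the interaction of Tnnc1, from -0.27 to 0.021 for the interaction of Mat2a, from -0.29 to 0.17 for the interaction of Asns, from -0.42 to 0.14 for the interaction of Myc, from -0.041 to 0.22 for the interaction of Mki67, from -0.032 to 0.99 for the interaction of Cd8a. The list medians ranged from -7.34 to 5.32 for the interaction median of keratinocyte and skin, from -0.57 to 0.10 for the interaction median of interferon gamma response and chemokines, from -0.38 to 1.9 for the interaction median of mast cell and basophil, from -2.71 to 4.63 for the interaction median of skeletal muscle. Limma-voom gave 0.34 for Lor, 0.31 for Tnnc1 and -0.21 for Cd8a. The replicate numbers were checked by the correlation of same-numbered libraries, which was 0.07, -0.35, -0.20 and 0.31 in MC38. For BPD6 columns 1, 2 and 4 it was -0.26, 0.09 and -0.03. Such correlations cannot settle whether same-numbered libraries were paired, because single libraries also shifted for other reasons. A replicate block within MC38 gave 0 interaction calls (716 at an unadjusted p under 0.05) and 0.19 for Tnnc1. A replicate block by column number in both models, added after seeing the data, gave 0 calls (1023), with 0.69 for Tnnc1, 0.065 for Asns, -0.037 for Cd8a and -0.17 for the mast cell median. The length class was also added after seeing the data.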

Other observations

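Genes of sterol and fatty acid synthesis had a median interaction of 0.29, with 25 of 30 above 0 and 0 at an unadjusted p under 0.05. The median was 0.05 without BPD6 control library 3, 0.14 without BPD6 MR library 2, 0.17 and 0.44 without BPD6 control libraries 1 and 4, and 0.60 without BPD6 MR library 1. Hmgcs1, which makes HMG-CoA for cholesterol, had 0.61 ± 0.44, and Fdps, a later enzyme of the same route, had 0.74 ± 0.50. Smooth muscle and pericyte genes had a median of 0.58, which ranged from 0.15 without MC38 MR replicate 2 to 0.64 without MC38 MR replicate 4. Dendritic cell genes had 0.26, which ranged from 0.00320 without MC38 control replicate 1 to 0.55 without BPD6 MR library 1.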
